A study of Mus musculus with 4 samples.

Results

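A group of 9 genes that respond to, or carry out, Wnt signalling in the nucleus was read in the primordia of lung, esophagus, stomach and intestine of the mouse embryo: Lef1, Tcf7, Tcf7l1, Tcf7l2, Axin2, Nkd1, Sp5, Lgr4 and Lgr5. They were chosen by name, and every non-control probe whose transcript accession maps to one of these symbols was taken, which gave 15 probes for 9 of the 16995 genes named on the array. The embryos were of the ICR strain, an outbred laboratory mouse, at stage E11.5 (embryonic day), with no treatment or engineered allele in the labels. Each primordium was dissected and its RNA hybridised to 1 array in 1 colour (Cy3), so the groups are lung, esophagus, stomach and intestine with n = 1 each; the labels do not say how many embryos went into a sample. The protocol text for RNA isolation speaks of stomach for all 4 samples, and the organ was taken from titles and tissue labels.

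In canonical Wnt signalling, a Wnt ligand bound to its receptors spares beta-catenin from destruction, and beta-catenin enters the nucleus and joins DNA-bound Tcf/Lef factors to switch genes on. Without it the same factors, with Tle corepressors, hold those genes down. Many of the genes switched on feed back on the pathway, and Wnt ligands are known to be needed for the lung to form from the foregut and, later, for intestinal stem cells.

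Each organ had a single array, so no test could be run and no p-value is given; every difference describes a pair of samples. Levels are log2 signal minus the array's own 75th percentile over probes, so that a level of 0 is the signal at that percentile. A difference of 1 or more on this scale (2-fold) is the size counted. Spread came from within the arrays: copies of 1 probe varied with a median SD of 0.10 on the lung array and of 0.07 to 0.08 on the other 3. A wider measure was the SD between differences read by separate probes of the same gene, over 2508 genes, which was 1.20 for lung over esophagus, 1.10 for lung over stomach, 0.91 for lung over intestine, 0.44 for esophagus over stomach, 0.86 for esophagus over intestine and 0.60 for stomach over intestine. Neither covers differences of dissection, RNA or labelling.

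Signal was weakest on the lung array, where 39.0% of spots were well above background, against 67.9% to 74.0% on the other 3. The lowest level well above background was −2.39 in lung and between −6.93 and −5.75 in the other organs. A gene not well above background enters at the higher of its own level and that lowest level, and its fold is then written "at least". Organ markers were highest in the organ the label names. Summed signal, as a multiple of the 75th percentile, of the lung markers Nkx2-1 and Sftpc was 9.94 in lung and 0.76 in esophagus, with neither well above background in stomach and intestine. The sum of the esophagus markers Sox2 and Trp63 was 3.37 in esophagus and at most 1.77 elsewhere, that of the stomach markers Barx1 and Nkx6-2 was 27.5 in stomach and at most 1.89 elsewhere, and that of the intestinal markers Cdx2 and Isx was 6.80 in intestine and at most 0.09 elsewhere. The esophagus sample stood out for 5 heart muscle markers, which summed to 7.30 in lung and 94.1 in esophagus, and 1.54 in stomach and 0.70 in intestine. Liver markers summed to 26.2 in lung and 9.83 in esophagus, and 3.26 in stomach and 60.8 in intestine. Erythroid markers summed to 314 in lung and 109 in esophagus, and 158 in stomach and 111 in intestine. Epithelial markers summed to 44.0, 31.9, 95.3 and 47.7 in the order lung, esophagus, stomach, intestine. Mesenchymal markers summed to 200.2, 289, 181 and 128 in the same order. Every marker sum takes in only markers well above background on that array. Single markers did not all follow the sums. Epcam, Cdh1 and Cldn6 were higher in lung (0.27, 0.13 and 1.70) than in stomach (−0.07, −0.10 and 0.45), and Krt8 and Krt18 lower. Esrp1 was not well above background in lung. Pdgfrb and Col3a1 were higher in lung (3.35 and 6.02) than in esophagus (2.15 and 5.02), and the other mesenchymal markers lower. The part of these mixtures in the levels below was not tested. In RNA of a bulk organ, fewer cells of a type and less RNA per cell cannot be told apart.

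The 9 genes differed in spread over the organs, from Sp5 and Lef1 at the wide end to Axin2 at the narrow end, and the stretch around the start of transcription is shown for Sp5, Lef1 and Axin2. Each is 250 bases before to 50 bases after the start on the coding strand, from RefSeq promoter sequences of build GRCm38.p6. Sp5 lies at chr2:70474673-70474972 (+), Lef1 at chr3:131110047-131110346 (+) and Axin2 at chr11:108920099-108920398 (+). Capitals mark a match to a core Tcf/Lef motif, CTTTGAT or CTTTGAA, read on both strands.
Sp5: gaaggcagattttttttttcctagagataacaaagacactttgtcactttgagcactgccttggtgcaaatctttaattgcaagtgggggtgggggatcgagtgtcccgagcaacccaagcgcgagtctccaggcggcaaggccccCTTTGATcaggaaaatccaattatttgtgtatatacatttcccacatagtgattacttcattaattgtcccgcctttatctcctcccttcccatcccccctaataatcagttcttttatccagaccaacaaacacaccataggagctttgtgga
Lef1: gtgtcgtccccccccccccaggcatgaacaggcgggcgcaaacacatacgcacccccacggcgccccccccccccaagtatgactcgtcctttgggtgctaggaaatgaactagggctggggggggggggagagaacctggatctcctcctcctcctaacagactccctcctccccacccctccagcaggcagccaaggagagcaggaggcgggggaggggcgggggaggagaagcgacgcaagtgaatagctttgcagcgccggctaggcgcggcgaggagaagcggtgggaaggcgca
Axin2: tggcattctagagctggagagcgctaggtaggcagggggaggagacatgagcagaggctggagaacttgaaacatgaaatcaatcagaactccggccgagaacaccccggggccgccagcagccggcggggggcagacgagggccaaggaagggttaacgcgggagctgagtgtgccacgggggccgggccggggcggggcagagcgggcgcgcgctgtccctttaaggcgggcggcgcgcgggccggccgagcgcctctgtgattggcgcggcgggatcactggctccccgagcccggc
Sp5 holds 1 match, CTTTGAT, which begins 104 bases before the start. No other window did among 13 windows found for 8 of the 9 genes (Lgr5 had none in the table), while 8.65% of all 32851 windows of the same length held a match. A match is a run of letters, and a window without one says nothing of factors that bind elsewhere.

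**Figure D1:**
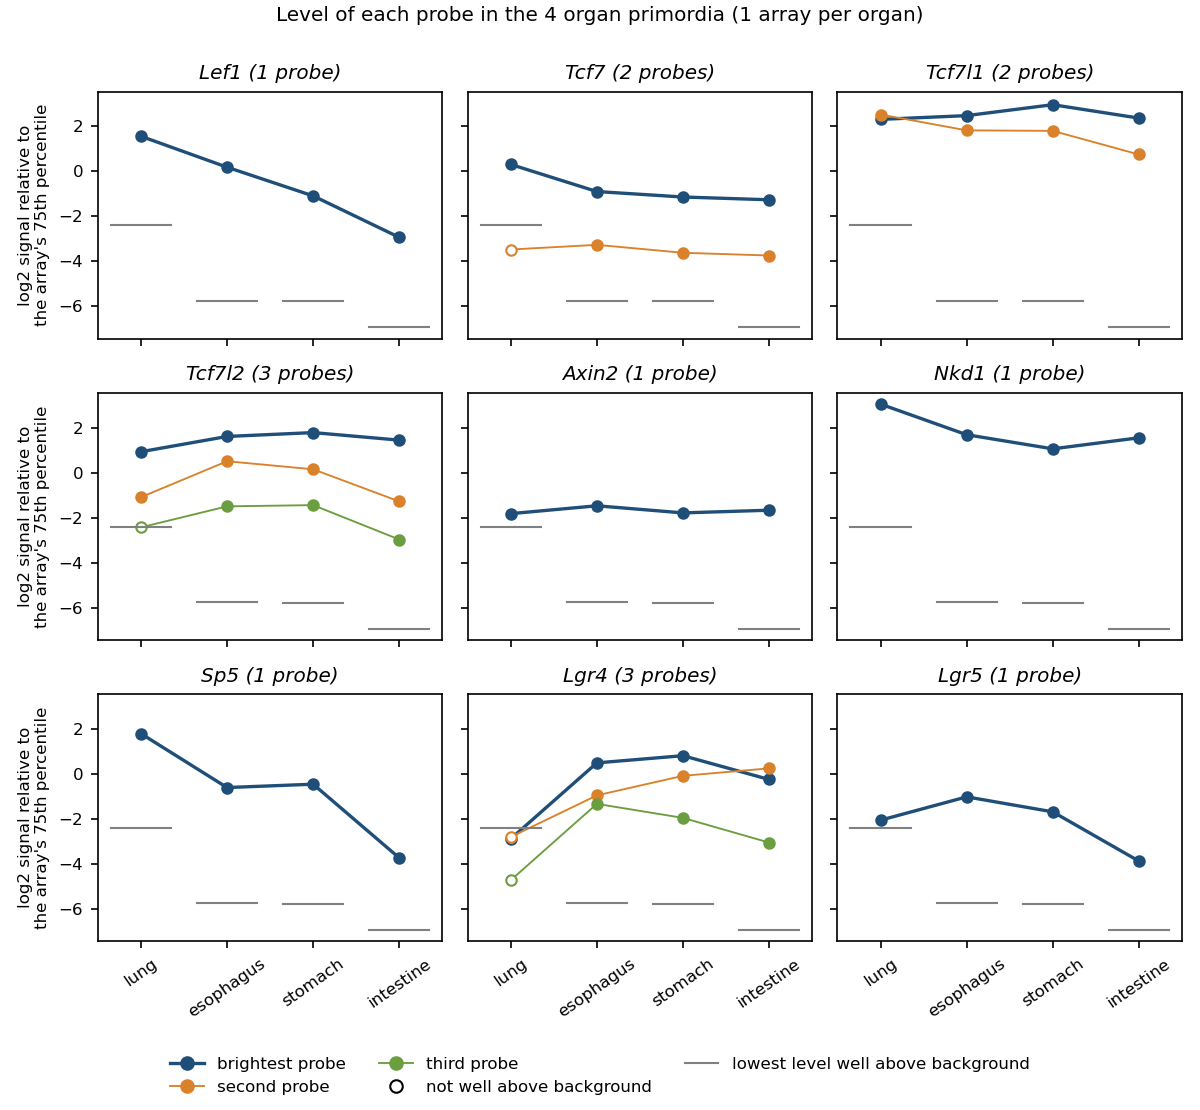
Level of every probe of the 9 genes (y axis, log2 signal relative to the array's 75th percentile) in lung, esophagus, stomach and intestine (x axis; 1 array each, lines join probes only for reading). Open points are not well above background and grey bars are the lowest level well above background; Lef1 and Sp5 stand at 1.56 and 1.80 in lung and at −2.93 and −3.73 in intestine, while Axin2 stays between −1.82 and −1.47.

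Lef1, the Tcf/Lef factor that is also a Wnt target in many tissues, had the most graded pattern of the 4 factors. Its level was 1.56 in lung and 0.19 in esophagus, and −1.09 in stomach and −2.93 in intestine (probe A_51_P420400). Each organ along this order was lower than the one before it: Lef1 was 2.60-fold higher in lung than in esophagus, 2.42-fold higher in esophagus than in stomach and 3.59-fold higher in stomach than in intestine. All 6 pairs exceeded both measures of spread. End to end, Lef1 was 22.5-fold higher in lung than in intestine, and its range over the 4 organs was wider than that of 99.4% of 9497 genes well above background on all arrays. Of the 6 differences, lung over esophagus alone missed 2-fold under an alternative (0.62 on the log2 scale with normexp background correction).

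Tcf7, the factor first known from T cells, was highest in lung. It stood at 0.31 in lung and −0.90 in esophagus, and −1.14 in stomach and −1.26 in intestine (probe A_52_P244702), so that lung was 2.31-fold higher than esophagus, 2.73-fold higher than stomach and 2.97-fold higher than intestine. Among the other 3 organs the differences of 0.12 to 0.37 were smaller than the spread between probes. A dimmer probe of Tcf7 (A_52_P244711) read −3.26 in esophagus, −3.62 in stomach, −3.74 in intestine, and it was not well above background in lung, so it gives no lung value to compare. Averaged over both probes, all 3 lung differences of Tcf7 were under 2-fold (0.50 over esophagus, 0.80 over stomach, 0.92 over intestine). That average takes in the dimmer probe's lung reading of −3.47, although it was not well above background. By A_52_P244702 alone, normexp correction also put lung under 2-fold over esophagus (0.82) and stomach (0.97), with 1.23 over intestine. The 75th percentile over bright probes put lung over esophagus at 0.90. As reported, lung over esophagus (1.21 on the log2 scale) was close to the spread between probes (1.20).

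Tcf7l1, which acts mainly as a repressor, was high everywhere. It stood at 2.31 in lung and 2.48 in esophagus, and 2.97 in stomach and 2.37 in intestine by its brightest probe (A_51_P156547), and no pair reached 2-fold. The probe A_52_P387724 of the same gene read 2.53, 1.82, 1.80 and 0.75 in the order lung, esophagus, stomach, intestine, and put lung over intestine at 1.78, esophagus over intestine at 1.07 and stomach over intestine at 1.05 on the log2 scale. The direction of lung over esophagus, lung over stomach and lung over intestine is opposite between these probes. Esophagus over stomach also differed in sign, at −0.49 by A_51_P156547, more than the spread between probes, and 0.02 by A_52_P387724. With normexp correction the brightest probe put lung lower by more than 2-fold (−1.14 over esophagus, −1.58 over stomach, −1.15 over intestine).

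Tcf7l2, the factor best known from the intestinal epithelium, was not highest in intestine. It stood at 0.93 in lung and 1.61 in esophagus, and 1.78 in stomach and 1.45 in intestine (probe A_52_P566741), and none of its pairs reached 2-fold or exceeded the spread between probes. Of the 2 dimmer probes, A_52_P316355 read −1.09, 0.51, 0.15 and −1.28, and A_52_P146043 read −1.49 in esophagus, −1.44 in stomach, −2.97 in intestine, with lung not well above background. Both put esophagus over intestine (1.79 and 1.47) and stomach over intestine (1.43 and 1.53) past 2-fold, against 0.16 and 0.34 for the brightest probe. In the lung pairs A_52_P316355 gave −1.60 over esophagus and −1.24 over stomach, against −0.68 and −0.85 for the brightest probe. Lung was also lower by more than 2-fold in both pairs with the mean of probes (−1.07 over esophagus, −1.03 over stomach) and with normexp (−1.06 in each), and over stomach with the 75th percentile of bright probes (−1.06). The mean of probes takes in the lung reading of A_52_P146043 (−2.43), although it was not well above background. In lung over intestine A_52_P316355 gave 0.19 and the mean of probes 0.07, against −0.52 for the brightest probe.

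Axin2, a scaffold of the beta-catenin destruction complex and a widely used readout of Wnt activity, differed little between organs. It stood at −1.82 in lung and −1.47 in esophagus, and −1.79 in stomach and −1.67 in intestine (probe A_52_P54176). Its whole range of 0.35 was wider than that of only 7.07% of 9497 genes, and every pair lay within the spread between probes. Its lung value sits near the lowest level well above background of that array (a software signal error of 20.1%), and the sign of its lung pairs is not stable: with normexp correction lung was higher by 0.72 than esophagus, 0.89 than stomach and 1.07 than intestine.

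Nkd1, a cytoplasmic inhibitor of Wnt signalling induced by it, was the other feedback gene and was highest in lung. It stood at 3.05 in lung and 1.69 in esophagus, and 1.06 in stomach and 1.55 in intestine (probe A_51_P124285). It was 2.57-fold higher in lung than in esophagus, 3.97-fold higher in lung than in stomach and 2.82-fold higher in lung than in intestine. Esophagus exceeded stomach by 0.63, more than the spread between probes, while esophagus and intestine, and stomach and intestine, did not differ beyond it. With normexp correction all 3 lung differences fell under 2-fold (0.32 over esophagus, 0.86 over stomach, 0.32 over intestine).

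Sp5, a zinc finger factor induced directly by Wnt signalling, spanned the widest range of the 9. It stood at 1.80 in lung and −0.60 in esophagus, and −0.45 in stomach and −3.73 in intestine (probe A_51_P404193). Sp5 was 5.27-fold higher in lung than in esophagus, 4.75-fold higher in lung than in stomach and 46.1-fold higher in lung than in intestine, and esophagus and stomach differed by 0.15, within the spread between probes. It was 8.75-fold higher in esophagus than in intestine and 9.70-fold higher in stomach than in intestine. Its 4-organ range exceeded that of 99.8% of 9497 genes, and these 5 differences passed 2-fold under all 9 alternative settings.

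Lgr4 and Lgr5 are receptors for R-spondins, which raise the sensitivity of cells to Wnt ligands, and Lgr5 also marks intestinal stem cells. Lgr4 stood at −2.88 in lung, where it was not well above background, and at 0.50 in esophagus, 0.82 in stomach and −0.24 in intestine (probe A_51_P442746). It was at least 7.42-fold lower in lung than in esophagus, at least 9.25-fold lower than in stomach and at least 4.44-fold lower than in intestine. Both other probes of Lgr4 were also not well above background in lung. On the log2 scale, A_52_P276727 was bounded at −1.45 over esophagus, −2.31 over stomach and −2.65 over intestine. A_52_P278566 was bounded at −1.07 over esophagus and at only −0.44 over stomach, and its lung over intestine was not compared. With normexp correction the bounds of the brightest probe fell under 2-fold in lung over esophagus (−0.98 on the log2 scale) and in lung over intestine (−0.42). Between stomach and intestine the brightest probe gave 2.08-fold, A_52_P278566 gave 1.10 on the log2 scale and A_52_P276727 gave −0.33, so that direction depends on the probe. The same holds between esophagus and intestine, where the brightest probe gave 0.74, A_52_P278566 gave 1.72 and A_52_P276727 gave −1.20. It also holds between esophagus and stomach, where the brightest probe gave −0.32, A_52_P278566 gave 0.62 and A_52_P276727 gave −0.87.

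Lgr5 stood at −2.05 in lung and −1.01 in esophagus, and −1.68 in stomach and −3.87 in intestine (probe A_51_P218091), and intestine was the lowest. Lgr5 was 3.53-fold higher in lung, 7.23-fold higher in esophagus and 4.56-fold higher in stomach than in intestine, each under all alternatives. Lung was 2.05-fold lower than esophagus, within the spread between probes, with a software signal error of 22.0% on the lung spot, and this difference turned to 0.39 the other way with normexp correction. Esophagus exceeded stomach by 0.67, more than the spread between probes.

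**Figure D2:**
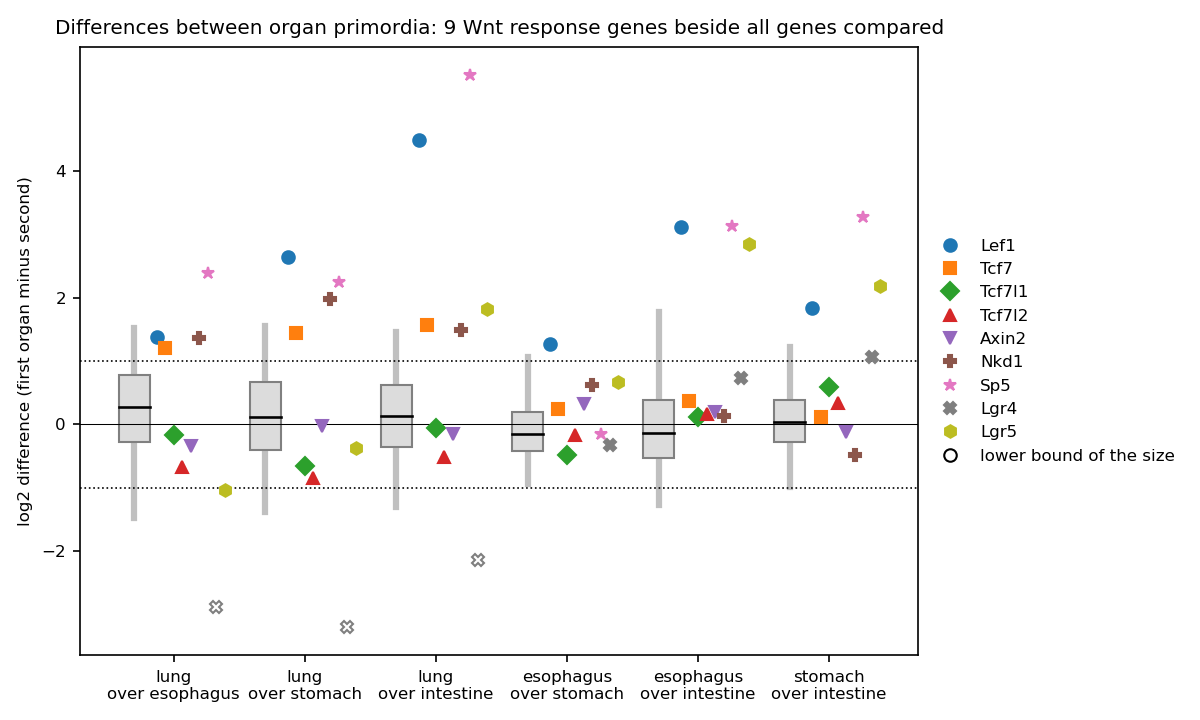
Log2 difference (y axis, first organ minus second) of each of the 9 genes in 6 organ pairs (coloured markers; open, a bound because lung was not well above background), beside all genes compared (box, the middle 50% with the median; bar, 5th to 95th percentile). Sp5 reaches 5.53 and Lef1 4.49 in lung over intestine, where the 95th percentile of all genes is 1.46; dotted lines are 2-fold.

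Over the 6 pairs, 25 of 54 differences of the 9 genes reached 2-fold, 24 of them larger than the spread between probes, and 3 genes (Axin2, Tcf7l1 and Tcf7l2) reached it in none. In lung over esophagus 6 of the 9 did (4 higher, 2 lower), beside 25.6% of 10513 genes compared (16.2% higher, 9.42% lower). In lung over stomach it was 5 (4 higher, 1 lower), beside 23.9% of genes (14.0% higher, 9.87% lower). In lung over intestine it was 6 (5 higher, 1 lower), beside 20.6% (12.2% higher, 8.40% lower). Esophagus over stomach had 1 higher, Lef1, and 0 lower, beside 9.90% (5.63% higher, 4.27% lower). Esophagus over intestine had 3 higher and 0 lower, beside 20.6% (11.9% higher, 8.71% lower). Stomach over intestine had 4 higher and 0 lower, beside 12.4% (7.52% higher, 4.87% lower). The genes were chosen as a named group and the pairs share arrays, so these counts are descriptions of the same 4 samples.

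The median difference of the 9 genes was −0.17 in lung over esophagus, −0.03 in lung over stomach and 1.50 in lung over intestine, where that of all genes was 0.28, 0.12 and 0.14. The sign of the lung over esophagus and lung over stomach medians turned with median centring (0.42 and 0.35), where all genes moved to 0.91 and 0.53. It also turned with normexp (0.39 and 0.86, all genes −0.21 and −0.32). With the mean of probes the medians were 0.27 and 0.04 (all genes 0.11 and −0.005), and with quantile normalization 0.07 and 0.26 (all genes 0.17 and 0.06). With only genes well above background on both arrays, Lgr4 dropped out. The medians of the remaining 8 genes were then 0.52 and 0.71 (all genes 0.37 and 0.22). As reported, the median of the 9 genes was 0.24 in esophagus over stomach, 0.37 in esophagus over intestine and 0.60 in stomach over intestine. That of all genes was −0.16, −0.13 and 0.04. By the brightest probe, esophagus was above intestine for 9 of 9 genes and 41.4% of all genes. With arrays centred on the median it was above for 4 of 9. Their median was then −0.14, where that of all genes was −0.62.

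**Figure D3:**
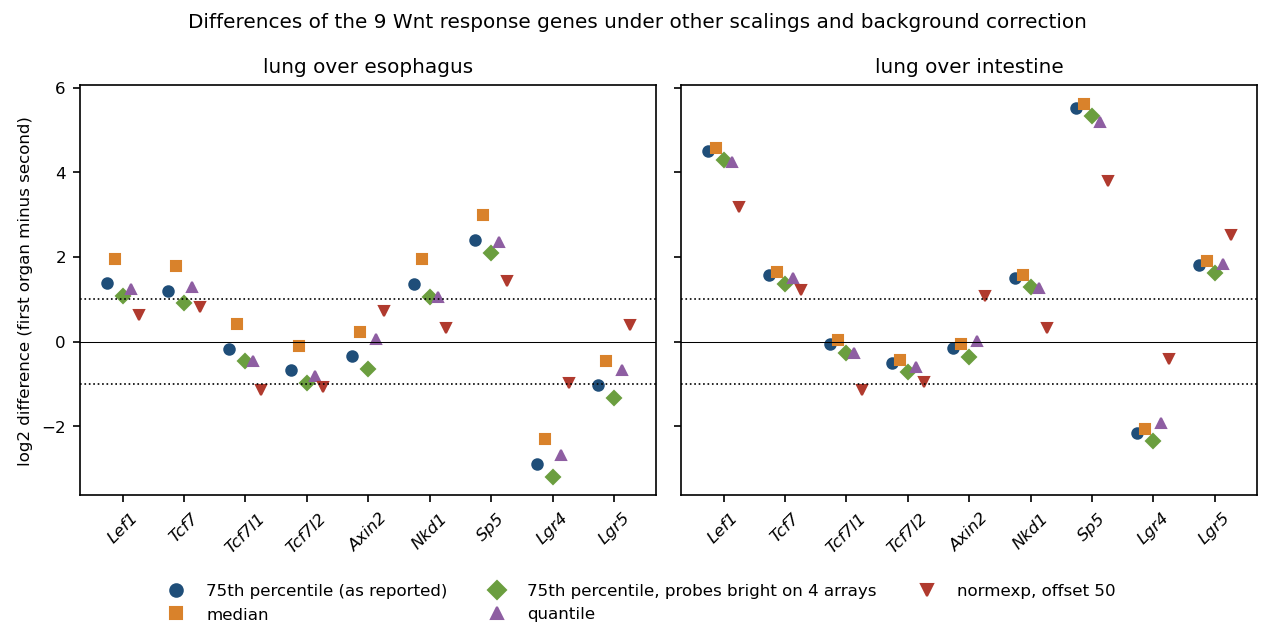
Log2 difference of the 9 genes in lung over esophagus (left) and lung over intestine (right) under the 75th percentile, the median, the 75th percentile over bright probes, quantile normalization and normexp background correction. Sp5 stays above 1 under every setting in both panels, Lef1 in lung over intestine, while Nkd1 falls to 0.32 with normexp in both and Axin2 lies on both sides of 0.

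Other Wnt genes were read from 3 lists written for this purpose with earlier results of these data known. Of the beta-catenin machinery (coreceptors, Dishevelled and destruction complex proteins, and nuclear cofactors), 25 genes were measured. In lung over esophagus 5 were 2-fold higher and 5 lower of 24 compared, beside 16.2% and 9.42% of all genes. In lung over stomach 2 were higher and 3 lower of 24, beside 14.0% and 9.87%, and in lung over intestine 2 and 1 of 23, beside 12.2% and 8.40%. In esophagus over stomach 0 were higher and 1 lower of 25, beside 5.63% and 4.27%, in esophagus over intestine 7 and 2 of 25, beside 11.9% and 8.71%, and in stomach over intestine 1 and 0 of 25, beside 7.52% and 4.87%. With median centring 10 were higher and 3 lower of 22 in lung over esophagus, beside 44.9% and 4.54% of all genes in that setting. In lung over stomach it was then 8 and 2 of 24, beside 27.8% and 5.18%. In esophagus over intestine it was 1 and 5 of 25, beside 6.74% and 26.5%. With the 75th percentile over bright probes 2 were higher and 7 lower of 24 in lung over esophagus, beside 8.17% and 14.1%. With normexp it was 1 and 3 of 21 in lung over esophagus, beside 8.17% and 14.7%. In lung over stomach normexp gave 0 and 4 of 20, beside 7.96% and 20.1%. In lung over intestine it gave 2 and 5 of 20, beside 9.68% and 23.3%. The coreceptor Lrp5 stood at 1.34 in lung and −0.04 in esophagus, and 0.25 in stomach and 0.38 in intestine, and its relative Lrp6 at −0.85, 0.84, −0.06 and −0.71. The corepressor Tle1 stood at 2.64, 4.24, 4.55 and 2.99 and Tle4 at 3.40, 2.67, 3.97 and 4.20 in the same order.

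Among other target and feedback genes that could be compared, more were 2-fold higher than 2-fold lower in lung. Of 21 measured, 7 were higher and 2 lower of 14 compared in lung over esophagus, beside 16.2% and 9.42% of all genes. In lung over stomach 9 were higher and 2 lower of 15, beside 14.0% and 9.87%, and in lung over intestine 9 and 0 of 15, beside 12.2% and 8.40%. The medians were 0.78, 1.18 and 1.11, where those of all genes were 0.28, 0.12 and 0.14. In esophagus over stomach 5 were higher and 2 lower of 21, beside 5.63% and 4.27%. In esophagus over intestine it was 7 and 1 of 20, beside 11.9% and 8.71%, and in stomach over intestine 4 and 1 of 20, beside 7.52% and 4.87%. Because dim genes drop out of the lung pairs, these counts cover the genes bright enough to be compared. The counts also depend on the background correction. With normexp 2 were higher and 2 lower of 14 in lung over esophagus, beside 8.17% and 14.7% of all genes. In lung over stomach it was then 4 and 1 of 14, beside 7.96% and 20.1%. In lung over intestine it was 5 and 2 of 14, beside 9.68% and 23.3%. The medians of the list with normexp were 0.45, 0.51 and 0.76, where those of all genes were −0.21, −0.32 and −0.43. Notum, a secreted enzyme that inactivates Wnt ligands, stood at −0.82 in lung and −2.90 in esophagus, and −4.16 in stomach and −4.80 in intestine. Znrf3, which removes Wnt receptors from the surface, stood at −0.27, −1.73, −2.36 and −1.96 in the same order. Bambi, a pseudoreceptor, stood at 3.77, 1.75, 1.20 and 1.81, and Tnfrsf19 at 4.28, 2.40, 2.65 and 1.97. Each of these 4 was highest in lung. Sox9, a factor of progenitor cells, stood at 1.96, 1.55, 0.49 and −0.37. Apcdd1, Sp8 and Msx2, also picked by the naming rule, were not well above background in lung and were not compared there. Ephb3 was lower in lung than in esophagus (−1.32) and stomach (−1.39), and Dact1 lower in lung than in esophagus (−1.17). Msx1 was bounded at −1.08 in lung over stomach (lower in lung). Ephb3, Dact1 and Msx1, the genes 2-fold lower in lung, are named beyond the naming rule, after their values were seen.

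**Figure D4:**
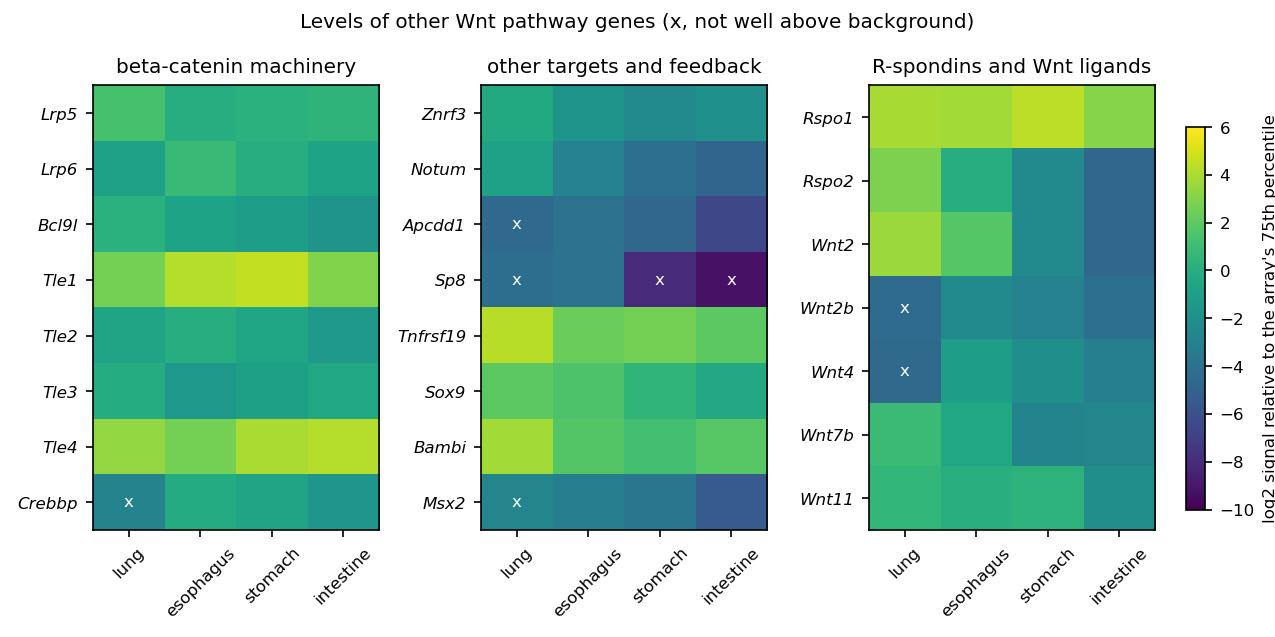
Levels (colour, log2 signal relative to the array's 75th percentile) of the named genes of the 3 lists in lung, esophagus, stomach and intestine (columns); x marks a gene not well above background. Wnt2 and Rspo2 stand at 3.61 and 2.81 in lung and at −4.73 and −4.71 in intestine, the widest spans of any named gene that was bright in every organ.

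Of 11 R-spondins and Wnt ligands, 10 were well above background on some array. In lung over esophagus 3 were 2-fold higher and 1 lower of 8 compared, beside 16.2% and 9.42% of all genes. In lung over stomach 3 were higher and 0 lower of 8, beside 14.0% and 9.87%, with a median of −0.05, and in lung over intestine 4 and 0 of 6, beside 12.2% and 8.40%. In esophagus over stomach 3 were higher and 0 lower of 9, beside 5.63% and 4.27%. In esophagus over intestine 6 were higher and 0 lower of 9, beside 11.9% and 8.71%, and in stomach over intestine also 6 and 0 of 9, beside 7.52% and 4.87%. Wnt2, expressed in lung mesenchyme, stood at 3.61 in lung and 1.76 in esophagus, and −2.32 in stomach and −4.73 in intestine, and Rspo2, a ligand of the Lgr receptors, at 2.81, 0.00, −2.40 and −4.71. Like Lef1 and Sp5, both were highest in lung and lowest in intestine. Wnt7b, made by lung epithelium, stood at 0.89, −0.44, −2.81 and −2.66. Wnt11 was lower in intestine (−2.09) than in lung (0.60), esophagus (0.02) and stomach (0.35). Rspo1 was high in all 4, between 3.07 and 4.38. Of the other ligands, Wnt4, Wnt2b, Wnt5a and Rspo3 were not well above background in lung. Wnt4 stood at −1.08 in esophagus, −2.06 in stomach, −3.11 in intestine, while lung over esophagus was bounded at −1.31 on the log2 scale (lower in lung). Wnt2b stood at −2.41, −2.89 and −4.15 in the order esophagus, stomach, intestine. Wnt5a (−1.60, −1.99 and −2.46) and Rspo3 (−2.36, −1.78 and −1.55), in that order, were 2-fold apart in no pair compared and are named beyond the naming rule, after their values were seen.

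For the 8 genes bright on every array (all but Lgr4), the nearest profiles by distance between mean-centred levels were sought among 9355 such genes, with Gm, Rik and clone-like names (including any that begin with C or D and a digit) left out, as a description of 4 arrays. Lef1 lay closest to Ndp (distance 0.03), Rasl12 (0.15) and Cldn10 (0.42). Sp5 had no close neighbour, the nearest being Aqp5 at 0.86. Nkd1 lay near Pcolce2 (0.14), Znrf3 (0.14) and Slc25a16 (0.15), and Znrf3 is itself a Wnt target of the list above. Tcf7 lay near Tbl1x, Cebpa and Bcat1, Tcf7l1 near Tmem39a and Sall4, Tcf7l2 near Ppm1l, Afap1 and Mnt, Axin2 near Irf9, Tex261 and Slc35a3, and Lgr5 near Pou3f1, Padi4 and Sema3d.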

How the data were processed

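Spot intensity values were deposited per array; per the file headers they come from Feature Extraction version 10.5.1.1 (protocol GE1_105_Dec08, array design 014868), and the authors' processed signal is background-subtracted and detrended, not scaled between arrays. Per the labels' protocols, RNA was amplified and Cy3-labelled with a low-input kit. The authors' deposited series table holds log2 values that match log2 processed signal minus the 75th percentile (r 0.99996 to 0.99998); its scale, centring and direction are known only from that match, and its array medians ran from −3.55 (lung) to −2.96 (esophagus), with −3.16 (stomach) and −3.46 (intestine).

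From the scanner files, flagged spots were left out (69 of 41174 probes dropped), copies averaged and the array's 75th percentile subtracted. Probes were named through RefSeq GRCm38.p6 accessions (24338 probes, 16995 genes), for names only, since the design refers to mm8. A gene's value is its brightest probe. A difference of at least 2-fold was counted; there was no test. Alternatives were other scalings, normexp with an offset of 50 (on the median signal, since the files hold no mean signal), the authors' table, the mean of probes, filters on dim probes and kept flags. The genes named from each list were up to 8 with the largest compared difference among those 2-fold apart in some pair; the nearest profiles were the closest 3, of which 1 is not reported here. The 9 genes and the lists were chosen with earlier results of these data known. In simulated data for esophagus over stomach, 200 of 9497 genes were given differences of −2, 1.5, 2 or 3 on the log2 scale. Each of these is larger than the counted size of 1. All 200 were counted, and 0 of 9297 unchanged genes. Differences nearer to 1, and pairs with the dim lung array, were not tested. The accuracy of the count on the real arrays was not tested. Python 3.11.15 with pandas 2.3.3 and R 4.3.3 with limma 3.58.1 were used.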

Additional observations from a re-analysis of the deposited data

How the results depend on the processing

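Single arrays limit the precision, and the dim lung array sets what can be compared. No paired analysis was possible because each organ had 1 array. Counts of the 9 genes at least 2-fold apart stayed within 1.5 times under the 9 alternatives, except lung over esophagus with normexp. There 3 genes were counted in place of 6 (1 higher, 2 lower), beside 8.17% higher and 14.7% lower of all genes. The normexp offset of 50 was above the 75th percentile of processed signal on the lung array (32.0) and below it on the others. Its part in the lung pairs, and the cause of the lower count, were not tested. In lung over stomach with normexp the balance turned (2 higher, 3 lower, against 4 and 1 as reported), beside 7.96% and 20.1% of all genes. It evened in lung over esophagus with the mean of probes (3 and 3, against 4 and 2), beside 12.1% and 10.5%. Of the 25 differences past 2-fold, 23 kept their direction under all alternatives and 13 also stayed past 2-fold. The exceptions in direction were Lgr5 in lung over esophagus, 0.39 with normexp, and Lgr4 in stomach over intestine, −0.33 by probe A_52_P276727; the cause of neither was tested. The scaling also moved all genes: centring on the median put the median of all genes at 0.91 in lung over esophagus, 0.53 in lung over stomach, −0.36 in esophagus over stomach, −0.62 in esophagus over intestine and −0.26 in stomach over intestine, and normexp put it at −0.21, −0.32 and −0.43 in lung over esophagus, stomach and intestine. Of genes 2-fold apart in lung over esophagus, 63.3% were higher in lung as reported, 90.8% with median centring and 35.7% with normexp; in esophagus over intestine 57.8% were higher in esophagus as reported and 20.3% with median centring.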
